A study of Mus musculus with 9 samples.

Results

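Malat1, Neat1, Kcnq1ot1 and Snhg11 are 4 noncoding or host-gene RNAs known mainly from the nucleus, and they were followed here in single-cell RNA data from mouse kidney by mouse, group and cell type, beside the share of mitochondrially encoded transcripts in the same cells. They are 4 of the 32427 genes in the deposited matrices. They were named by hand with earlier results of these data known, and no threshold on their values was used. Their levels are given as a description, and tests come only from fits across all genes.

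The 9 libraries came from male C57BL/6 mice that were 6 weeks old at the start, with 3 mice per group. Control mice received saline by intraperitoneal injection. AKI-CKD mice, a model of acute kidney injury that passes into chronic kidney disease, received 4 weekly intraperitoneal injections of cisplatin at 8 mg/kg. AKI-CKD + EGT mice received the same cisplatin and also drank ergothioneine (EGT, a dietary antioxidant) at 0.5 mg/mL, starting 3 days before the first injection. Kidneys were taken at 8 weeks, and tissue of 1 kidney per mouse was dissociated and captured in droplets with poly(dT) primers. Each library is a separate mouse, so the spread given here is that between mice.

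The matrices held 216680 barcodes, of which 196925 cells were kept with at least 1000 UMIs (unique molecular identifiers, which count captured molecules), at least 500 genes and at most 15% mitochondrially encoded UMIs. The kept cells of a mouse held 64225484 to 97584966 UMIs, with a median of 2534 to 2966 per cell. The mitochondrial limit removed 0.909% (Control mouse 3) to 27.7% (AKI-CKD + EGT mouse 3) of the cells that passed the minimums. Cells fell into 23 clusters, 22 of which were given 1 of 12 type names from marker lists, so a type name here means cells like that type. A cluster of 17667 cells led by proximal tubule genes stayed unnamed. As 1 example for each name used most, Slc34a1 was at 4352 CPM (the UMIs of a gene scaled to a fixed total) in pooled proximal tubule (PT) cells. Slc12a3 was at 2546 CPM in distal convoluted tubule (DCT) cells, Umod at 3835 CPM in loop of Henle (LOH) cells and Aqp2 at 5357 CPM in collecting duct principal cells (CD-PC). Of the full marker lists, 13 of 16 were highest of the 12 types in PT cells, 7 of 11 in DCT, 7 of 9 in LOH and 9 of 9 in CD-PC cells. The other 4 DCT markers were highest in CD-PC cells, and Umod was also at 949.4 CPM in DCT cells. The cells named DCT combine 2 clusters, and only cluster 13 (7764 cells) is led by Slc12a3, at 3661 CPM against 570.7 CPM in cluster 14 (4920 cells). Cluster 14 is led by S100g (31033 against 1810 CPM in cluster 13), with Calb1 at 2198 against 526.7 CPM, genes also known from the connecting tubule. The cells named stromal were highest of the 12 types in 11 of 12 stromal markers and also in 8 of 9 thin limb markers, which summed to 5128 and 4845 CPM there, so stromal and thin limb cells cannot be told apart in their levels.

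RNA of PT cells was present in every type. Slc34a1, the sodium-phosphate transporter of the proximal tubule, averaged 4323 CPM in PT cells over the 9 mice and 2985 CPM in B cells. In the 11 other types its level was 37.3% (intercalated cells, CD-IC) to 74.2% (podocytes) of that in PT cells of the same mouse, as medians over mice. Empty droplets were not analysed here, so free RNA and doublets cannot be told apart as its source. How much of the 4 RNAs outside PT cells came with this RNA was not tested.

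Malat1 is a long RNA that collects at nuclear speckles, the domains that store splicing factors. Neat1 is the scaffold of paraspeckles, nuclear bodies that form around it and hold RNA-binding proteins. Kcnq1ot1 is transcribed antisense to Kcnq1 from the paternal allele and silences neighbouring imprinted genes. Snhg11 is a host gene, a transcript whose introns give rise to small nucleolar RNAs.

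Poly(dT) primers can anneal to runs of A inside a transcript as well as to its tail, so the longest A runs of Malat1 and Kcnq1ot1 are shown, in capitals, with 20 bases on each side. They were read from the longest GENCODE vM21 transcript of each gene (build GRCm38), with positions counted from its 5′ end.
Malat1, positions 6654 to 6705 of 6983: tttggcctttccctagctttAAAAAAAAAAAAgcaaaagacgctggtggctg
Kcnq1ot1, positions 69545 to 69625 of 93092: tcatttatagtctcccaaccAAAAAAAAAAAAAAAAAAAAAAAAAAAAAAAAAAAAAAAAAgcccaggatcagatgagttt
The Malat1 run of 12 A ends 298 bases before the annotated 3′ end. It belongs to the A-rich tract beside which RNase P is known to cut, a step that releases a small tRNA-like RNA and leaves Malat1 without a conventional poly(A) tail. The Kcnq1ot1 run of 41 A ends 23487 bases before the annotated end, and that transcript holds 30 runs of 8 or more A. Neat1, at 20771 bases, has no run over 7 A, and Snhg11, at 5864 bases, has 3 runs of 8 A. Of 18199 noncoding genes in the annotation, 3.95% hold a run at least as long as that of Malat1 and 0.0165% one as long as that of Kcnq1ot1. Where the reads lay on the transcripts was not analysed here.

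RefSeq promoters (250 bases before to 50 after the start, build GRCm38.p6) were found for 3 of the 4 genes and are shown because their RNAs varied together between mice, as described further on. Capitals mark the hypoxia response core ACGTG on either strand.
Malat1, chr19:5802623-5802922, minus strand: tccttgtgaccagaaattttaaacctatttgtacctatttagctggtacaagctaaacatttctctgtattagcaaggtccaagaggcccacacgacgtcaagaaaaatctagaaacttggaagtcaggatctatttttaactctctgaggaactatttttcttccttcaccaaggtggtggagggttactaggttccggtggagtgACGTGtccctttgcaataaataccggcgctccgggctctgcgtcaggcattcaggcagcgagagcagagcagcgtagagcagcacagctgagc
Kcnq1ot1, chr7:143296498-143296797, minus strand: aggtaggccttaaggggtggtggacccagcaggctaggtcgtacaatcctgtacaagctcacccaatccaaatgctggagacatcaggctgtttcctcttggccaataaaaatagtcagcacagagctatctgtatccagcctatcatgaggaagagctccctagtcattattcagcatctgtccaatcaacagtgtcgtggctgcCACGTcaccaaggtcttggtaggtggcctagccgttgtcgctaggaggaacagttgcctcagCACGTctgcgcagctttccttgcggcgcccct
Snhg11, chr2:158375463-158375762, plus strand: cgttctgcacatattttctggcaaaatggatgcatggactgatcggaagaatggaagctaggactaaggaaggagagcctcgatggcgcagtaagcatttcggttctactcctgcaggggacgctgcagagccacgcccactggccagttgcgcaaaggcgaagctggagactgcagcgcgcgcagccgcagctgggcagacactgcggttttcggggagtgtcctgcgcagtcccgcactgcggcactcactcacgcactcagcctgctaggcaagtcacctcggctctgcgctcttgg
The core occurred once in the Malat1 window, at position -43, at -44 and 19 in that of Kcnq1ot1, and not in that of Snhg11, while 19.6% of 32851 promoters of this length hold it. Its letters can overlap other motifs, which were not resolved. None of the 3 windows held the heat shock element GAANNTTC, the p53 half-site, the cAMP response element TGACGTCA or the TATA box TATAAA, which occur in 7.86%, 8.36%, 1.79% and 13.6% of promoters. GC content was 47.0% for Malat1, 53.3% for Kcnq1ot1 and 60.0% for Snhg11, with a median of 52.7% over all promoters.

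Malat1 gave 5469529 UMIs in the kept cells, 0.750% of all, beside 303979 for Neat1, 39684 for Snhg11 and 8376 for Kcnq1ot1. Summed over the kept cells of each mouse, Malat1 stood at 8649, 9272 and 7221 CPM in Control mice 1, 2 and 3, at 8613, 4499 and 2719 CPM in AKI-CKD mice and at 6317, 6759 and 14524 CPM in AKI-CKD + EGT mice. AKI-CKD mouse 1 was as high as the Control mice, AKI-CKD mouse 3 was the lowest of the 9 and AKI-CKD + EGT mouse 3 the highest, and the groups overlapped. The same spread was seen cell by cell. The median cell had 0.0442% of its UMIs from Malat1 in AKI-CKD mouse 3 and 1.00% in AKI-CKD + EGT mouse 3. No Malat1 UMI was found in 29.0% of the kept cells of the former and in 0.0290% of those of the latter, at median depths of 2966 and 2754 UMIs. Among Control mice that share was 0.570%, 1.103% and 12.1%.

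Neat1 stood at 779.7, 280.3 and 325.0 CPM in Control mice, 317.7, 221.9 and 169.4 CPM in AKI-CKD mice and 461.4, 401.0 and 981.5 CPM in AKI-CKD + EGT mice. Control mouse 1 was far above the other Control mice, and every AKI-CKD + EGT mouse was above every AKI-CKD mouse. Kcnq1ot1 stood at 14.7, 12.3 and 8.34 CPM in Control mice, 11.03, 6.24 and 3.98 CPM in AKI-CKD mice and 9.06, 13.4 and 28.2 CPM in AKI-CKD + EGT mice. Snhg11 stood at 81.3, 51.8 and 50.7 CPM in Control mice, 71.6, 35.9 and 26.4 CPM in AKI-CKD mice and 39.2, 57.6 and 78.8 CPM in AKI-CKD + EGT mice. Each of the 4 RNAs was lowest in AKI-CKD mouse 3, and Malat1, Neat1 and Kcnq1ot1 were highest in AKI-CKD + EGT mouse 3. That mouse also had the highest mitochondrial share of the kept cells, 6.39%, while Control mouse 3 had the lowest, 1.55%, followed by AKI-CKD mouse 3 at 1.94%.

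**Figure D1:**
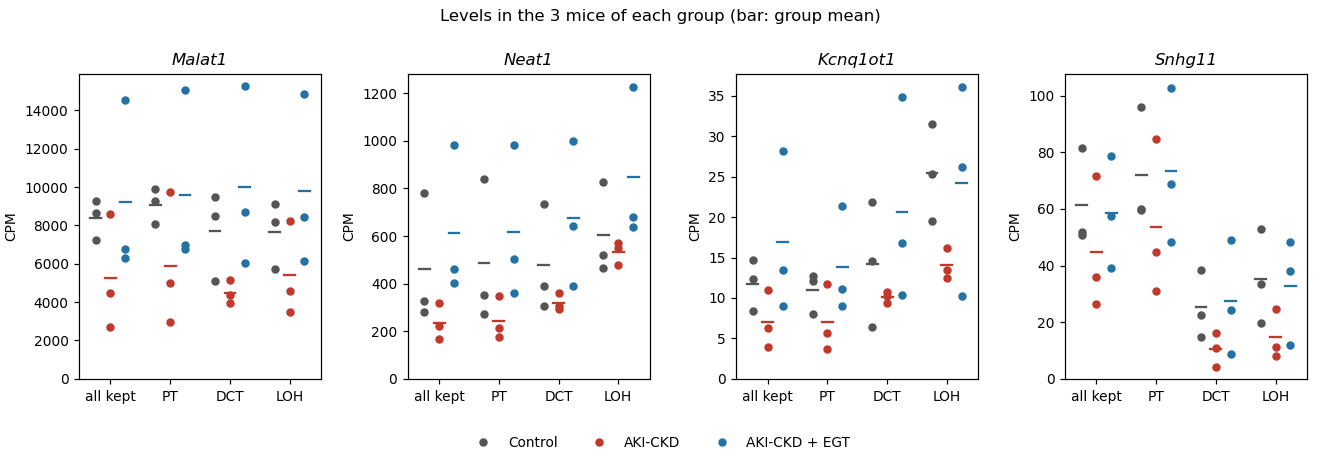
CPM (vertical axes, from 0) of the 4 RNAs in the summed UMIs of each mouse, in all kept cells, PT, DCT and LOH cells, with 1 point per mouse, groups in colour and a bar at the group mean. AKI-CKD + EGT mouse 3 is the top point for Malat1 in each population, at 14524 CPM in all kept cells, and Snhg11 is lower in DCT and LOH than in PT cells.

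AKI-CKD was set against Control to ask what cisplatin changed. All 4 RNAs had a negative log2 fold change in the sums of all kept cells, as had 49.8% of genes, and 0 of the 4 passed an adjusted p of 0.05 by edgeR, where 0.0199% of 20144 genes did. The log2 fold change was -0.62 for Malat1 (standard error 0.38, adjusted p = 0.672 from edgeR) and -0.88 for Neat1 (standard error 0.38, adjusted p = 0.617 from edgeR). It was -0.68 for Kcnq1ot1 (standard error 0.39, adjusted p = 0.655 from edgeR) and -0.39 for Snhg11 (standard error 0.32, adjusted p = 0.761 from edgeR). Neat1 alone of the 4 was under 0.05 without adjustment in edgeR, as were 8.02% of genes. DESeq2 called 0 of the 4. The mice of the 2 groups overlapped for each of the 4, whereas they stood apart in 15.8% of genes (TMM-scaled). Single mice decided the sizes. Malat1 had -1.16 without AKI-CKD mouse 1 and -0.34 without AKI-CKD mouse 3, Neat1 had -0.35 without Control mouse 1, and Kcnq1ot1 had -1.14 and -0.43 without AKI-CKD mice 1 and 3, as Snhg11 had -0.89 and -0.16. In sums like these, fewer cells of a type and less RNA per cell cannot be told apart.

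AKI-CKD + EGT was set against AKI-CKD to ask what ergothioneine changed under cisplatin, with the same AKI-CKD mice in both comparisons. All 4 RNAs had a positive log2 fold change, as had 48.8% of genes, and 0 of the 4 passed by edgeR, where 0.00496% of genes did. The log2 fold change was 0.55 for Malat1 (standard error 0.38, adjusted p = 0.548 from edgeR) and 1.12 for Neat1 (standard error 0.39, adjusted p = 0.330 from edgeR). It was 0.99 for Kcnq1ot1 (standard error 0.39, adjusted p = 0.354 from edgeR) and 0.15 for Snhg11 (standard error 0.32, adjusted p = 0.871 from edgeR). Neat1 and Kcnq1ot1 were under 0.05 without adjustment in edgeR, as were 12.7% of genes, and DESeq2 called 0 of the 4. Neat1 was the 1 RNA whose mice stood apart, higher in AKI-CKD + EGT mice, as in 8.54% of genes (TMM-scaled). Malat1 had 1.08 without AKI-CKD mouse 1, 0.26 without AKI-CKD mouse 3 and 0.18 without AKI-CKD + EGT mouse 3, without which Neat1 had 0.74 and Kcnq1ot1 0.53. The Snhg11 value changed sign without AKI-CKD mouse 2 (-0.023), AKI-CKD mouse 3 (-0.088) or AKI-CKD + EGT mouse 3 (-0.020).

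Mitochondrially encoded genes had fold changes of the same sign as the 4 RNAs, and 0 passed the test. Of 13, 0 were higher in AKI-CKD than in Control mice, at a median log2 fold change of -0.57, and 13 were higher with EGT than with cisplatin alone, at a median of 0.75. Examples are mt-Co1, a subunit of cytochrome c oxidase, at -0.57 (adjusted p = 0.701 from edgeR) and 0.84 (adjusted p = 0.396 from edgeR), and mt-Atp6, of ATP synthase, at -0.52 (adjusted p = 0.735 from edgeR) and 0.65 (adjusted p = 0.489 from edgeR). Ribosomal protein genes lay the other way, with 94 of 102 higher and a median of 0.34 in the first comparison, and 8 of 102 higher and a median of -0.44 in the second. By edgeR 0 genes of either list passed, with 1 and 4 mitochondrial and 34 and 58 ribosomal protein genes at an unadjusted p under 0.05, beside 8.02% and 12.7% of all 20144 genes. Haemoglobin genes, which mark red blood cells, had medians of -6.03 and 5.69 over 4 genes, with Hbb-bs averaging 47.7 CPM in Control mice, 0.625 CPM with cisplatin alone and 35.0 CPM with EGT (TMM-scaled), and Hba-a1 averaging 28.2, 0.377 and 22.96 CPM. Hbb-bs had -6.24 and 5.79 (adjusted p = 0.409 and 0.318 from edgeR). With library sizes computed without the mitochondrial and ribosomal protein genes and the 4 RNAs, all 32 fold changes of the 4 RNAs (4 populations, 2 comparisons) kept their sign and 0 passed by edgeR, with Malat1 at -0.63 and 0.55 in all kept cells. The part of haemoglobin genes was not tested.

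Genes for proteins of the bodies that Malat1 and Neat1 belong to were counted in the same fits. Of 20 paraspeckle protein genes, 7 were higher in AKI-CKD than in Control mice and 12 higher with EGT than with cisplatin alone, with median log2 fold changes of -0.04 and 0.02. Hnrnpk, an RNA-binding protein of paraspeckles, had 0.07 (adjusted p = 0.937 from edgeR) and -0.07 (adjusted p = 0.888 from edgeR). Of 26 nuclear speckle protein genes, 10 and then 12 were higher, with medians of -0.14 and -0.01. Son, a core speckle protein, had 0.05 (adjusted p = 0.938 from edgeR) and -0.28 (adjusted p = 0.399 from edgeR), and Srrm2, a splicing coactivator there, had -0.27 (adjusted p = 0.628 from edgeR) and 0.00 (adjusted p = 0.992 from edgeR). By edgeR 0 genes of the 2 lists passed in either comparison. At an unadjusted p under 0.05 in edgeR, 0 paraspeckle and 4 speckle genes (all lower) stood in the first and 3 and 2 in the second, beside 8.02% and 12.7% of all genes. In the first comparison 9 of 26 speckle and 2 of 20 paraspeckle genes were lower without overlap (TMM-scaled), as were 7.09% of all genes, and 0 were higher (8.71%). In the second 4 speckle and 3 paraspeckle genes were higher without overlap (8.54% of all genes), and 2 of each were lower (9.73%). Differences between populations were not tested. In DCT cells 5 and then 16 of 20 paraspeckle genes were higher (medians -0.07 and 0.13), and 5 and then 17 of 26 speckle genes (-0.21 and 0.07), beside 5661 and then 6049 of all 11802 genes (-0.015 and 0.011). In LOH cells it was 5 and then 15 paraspeckle genes (-0.24 and 0.21) and 2 and then 21 speckle genes (-0.22 and 0.13), beside 5631 and then 5827 of all 11388 genes (-0.0049 and 0.010). By edgeR 0 of these passed there in either comparison, and at an unadjusted p under 0.05 there were 0 to 4 genes of a list in a comparison. Of all genes, 9.63% and then 12.5% were under that value in DCT cells, and 9.73% and then 11.8% in LOH cells.

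Of 18 other noncoding RNAs, 6 were higher in AKI-CKD than in Control mice and 10 higher with EGT than with cisplatin alone, with medians of -0.14 and 0.22. Lncpint, a p53-induced noncoding RNA, had -0.73 (adjusted p = 0.476 from edgeR) and 0.51 (adjusted p = 0.355 from edgeR), and Oip5os1 had -0.07 (adjusted p = 0.919 from edgeR) and -0.10 (adjusted p = 0.775 from edgeR). The 20 other host genes of small nucleolar RNAs had medians of 0.14 and -0.25, opposite in sign to Snhg11, with 15 and then 3 of them higher. Gas5, a host gene tied to translation and growth arrest, had 0.20 (adjusted p = 0.772 from edgeR) and -0.44 (adjusted p = 0.357 from edgeR), and Snhg18 had 0.08 (adjusted p = 0.932 from edgeR) and -0.43 (adjusted p = 0.367 from edgeR). By edgeR 0 genes of these lists passed. At an unadjusted p under 0.05 in edgeR there were 6 and then 5 of the noncoding RNAs and 1 and then 7 of the host genes, beside 8.02% and then 12.7% of all genes. Of all genes, 50.2% and then 48.8% were higher.

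Of 12 genes tested around Kcnq1, 9 and then 5 were higher, with medians of 0.15 and -0.13. Slc22a18, an imprinted transporter gene, had 0.13 (adjusted p = 0.923 from edgeR) and -0.33 (adjusted p = 0.614 from edgeR), and Cd81, a tetraspanin, had 0.40 (adjusted p = 0.696 from edgeR) and -0.47 (adjusted p = 0.467 from edgeR). Kcnq1 itself, named after its values were seen because Kcnq1ot1 lies antisense within it, had -0.28 (adjusted p = 0.861 from edgeR) and 0.96 (adjusted p = 0.349 from edgeR). Whether the counting used the strand is not given in the sources used here, so reads of the 2 genes cannot be told apart where they overlap. Of 16 genes known to be induced by tissue dissociation, 15 and then 7 were higher, with medians of 0.22 and -0.08. Jun had 0.20 (adjusted p = 0.901 from edgeR) and -0.08 (adjusted p = 0.944 from edgeR), and Fos had 0.23 (adjusted p = 0.923 from edgeR) and -0.17 (adjusted p = 0.905 from edgeR). Lars2, the 1 measured gene of a list with similarity to ribosomal RNA, had 0.20 (adjusted p = 0.825 from edgeR) and -0.07 (adjusted p = 0.920 from edgeR). By edgeR 0 of these genes passed, with 0 and 2 Kcnq1 domain and 0 and 3 dissociation genes at an unadjusted p under 0.05, beside 8.02% and 12.7% of all genes.

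PT cells take up cisplatin and reabsorb most of the filtered load. There Malat1 stood at 9264, 9922 and 8072 CPM in Control mice, 9765, 4988 and 2951 CPM in AKI-CKD mice and 6958, 6788 and 15055 CPM in AKI-CKD + EGT mice. The 3 groups overlapped. The log2 fold changes were -0.56 (standard error 0.38, adjusted p = 0.579 from edgeR) and 0.46 (standard error 0.38, adjusted p = 0.588 from edgeR). They were -1.095 and 0.99 without AKI-CKD mouse 1, -0.25 and 0.15 without AKI-CKD mouse 3, and the second was 0.11 without AKI-CKD + EGT mouse 3. Neat1 had -0.88 (standard error 0.41, adjusted p = 0.461 from edgeR) and 1.08 (standard error 0.41, adjusted p = 0.274 from edgeR). Its AKI-CKD + EGT mice, at 359.9 to 981.3 CPM, stood above its AKI-CKD mice, at 174.1 to 346.4 CPM, in plain CPM, as in 22.2% of the 17089 genes with at least 90 UMIs there, but not once libraries were scaled by TMM. Kcnq1ot1 had -0.58 and 0.74, and Snhg11 had -0.34 and 0.22. Without AKI-CKD mouse 1 the first and second values were -1.18 and 1.38 for Neat1, -1.14 and 1.30 for Kcnq1ot1 and -0.80 and 0.68 for Snhg11. Without AKI-CKD mouse 3 Kcnq1ot1 had -0.29 and 0.44 and Snhg11 -0.081 and -0.042, without Control mouse 1 Neat1 had -0.32, and without AKI-CKD + EGT mouse 3 Neat1 had 0.70, Kcnq1ot1 0.41 and Snhg11 0.0096 in the second. By edgeR 0 of the 4 passed in PT cells, against 0.0506% and 0% of 17773 genes. Without adjustment 10.9% and 15.2% of genes were under 0.05 in edgeR, with 0 of the 4 RNAs among them in the first comparison and Neat1 in the second. DESeq2 called 0 of the 4 in either.

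Cells of the distal convoluted tubule reabsorb sodium chloride through Slc12a3. In the 2 clusters named DCT together, Malat1 stood at 8481, 9486 and 5103 CPM in Control mice, 5164, 4371 and 3930 CPM in AKI-CKD mice and 6057, 8679 and 15274 CPM in AKI-CKD + EGT mice. Control mouse 3 lay just below AKI-CKD mouse 1, and every AKI-CKD + EGT mouse was above every AKI-CKD mouse, as in 13.9% of the 11563 genes with at least 90 UMIs in plain CPM. Neat1 stood apart in the same way in plain CPM. Once libraries were scaled by TMM, Malat1 still did, as in 8.83% of 11802 genes, and Neat1 did not. The log2 fold changes were -0.74 (standard error 0.33, adjusted p = 0.509 from edgeR) and 1.07 (standard error 0.33, adjusted p = 0.311 from edgeR). Without AKI-CKD + EGT mouse 1 the second was 1.33, with an adjusted p of 0.0477 from edgeR. Over the fits with 1 mouse left out, 0 to 177 genes passed in that comparison, against 0 of 11802 in the full fit. Neat1, Kcnq1ot1 and Snhg11 had -0.55, -0.49 and -1.19 in the first comparison and 0.99, 0.99 and 1.28 in the second, with adjusted p of 0.328, 0.411 and 0.389 from edgeR in the latter. Without Control mouse 1 the first values of Neat1 and Kcnq1ot1 were -0.055 and -0.012, and without AKI-CKD + EGT mouse 3 the second values were 0.61, 0.58, 0.32 and 0.49 for Malat1, Neat1, Kcnq1ot1 and Snhg11. Cluster 14 made up 36.6% to 43.5% of these cells in a mouse, and its mean Malat1 was 4044 ± 3333 CPM against 9320 ± 3616 CPM in cluster 13 (SD, n = 9). In cluster 13 alone the Malat1 log2 fold changes were -0.60 (standard error 0.27, adjusted p = 0.571 from edgeR) and 0.90 (standard error 0.27, adjusted p = 0.317 from edgeR). In cluster 14 alone they were -1.25 (standard error 0.51, adjusted p = 0.566 from edgeR) and 1.74 (standard error 0.52, adjusted p = 0.349 from edgeR). Neat1 had -0.46 and 0.85 in cluster 13 and -0.78 and 1.61 in cluster 14, Snhg11 had -1.11 and 1.03, then -1.28 and 1.78, and Kcnq1ot1 had -0.46 and 0.85 in cluster 13, with too few UMIs (80) for the fit in cluster 14. By edgeR no gene passed in DCT cells in either comparison (0% of genes), while 9.63% and 12.5% had an unadjusted p under 0.05, among them Malat1 in the first and Malat1, Neat1 and Snhg11 in the second.

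In LOH cells, which reabsorb salt through Slc12a1, Kcnq1ot1 stood at 31.6, 25.4 and 19.6 CPM in Control mice, 16.2, 13.4 and 12.5 CPM in AKI-CKD mice and 10.3, 26.1 and 36.1 CPM in AKI-CKD + EGT mice. All AKI-CKD mice were below all Control mice, as in 6.27% of 11037 genes in plain CPM and 7.54% of 11388 genes scaled by TMM, and AKI-CKD + EGT mouse 1 was the lowest of the 9. The log2 fold changes were -0.94 (standard error 0.36, adjusted p = 0.447 from edgeR) and 0.94 (standard error 0.35, adjusted p = 0.347 from edgeR), on 526 UMIs over the 9 mice. Snhg11, on 701 UMIs, had -1.43 (standard error 0.50, adjusted p = 0.436 from edgeR) and 1.37 (standard error 0.50, adjusted p = 0.336 from edgeR). Neat1 had -0.23 (standard error 0.26, adjusted p = 0.791 from edgeR) and 0.70 (standard error 0.26, adjusted p = 0.347 from edgeR), and its AKI-CKD + EGT mice stood above its AKI-CKD mice, as in 7.64% of genes in plain CPM and 7.85% scaled by TMM. The first Neat1 value became 0.075 without Control mouse 1. Malat1 had -0.56 (standard error 0.34, adjusted p = 0.580 from edgeR) and 0.89 (standard error 0.34, adjusted p = 0.347 from edgeR). Without AKI-CKD + EGT mouse 3 the second values were 0.43, 0.30, 0.47 and 0.94 for Malat1, Neat1, Kcnq1ot1 and Snhg11. By edgeR no gene passed in LOH cells (0% in either comparison), with 9.73% and 11.8% at an unadjusted p under 0.05, among them Kcnq1ot1 and Snhg11 in the first and all 4 RNAs in the second. DESeq2 called none of the 4 RNAs in DCT or LOH cells, where it gave an adjusted p for 2 of them, and differences between populations were not tested.

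Levels by cell type are a description, since the types were formed from the same cells. Malat1 was highest in CD-PC cells, which reabsorb water under vasopressin, at 13666 ± 4873 CPM (SD, n = 9 mice), and lowest in cycling cells at 3609 ± 2535 CPM. In between came PT (8196 ± 3445), podocytes (7727 ± 3861, n = 7), LOH (7643 ± 3314), DCT (7394 ± 3578), endothelial (6877 ± 2463), stromal (6342 ± 3821), T (5655 ± 3209), macrophage (5170 ± 3340), CD-IC (4954 ± 3824) and B cells (4534 ± 2747). The mice of each type overlapped with those of the next in the order, for Malat1 and for the other 3 RNAs alike. These ranges pool the 3 groups and leave out that the types share mice. Compared within a mouse, CD-PC cells were above PT cells in 8 of 9 mice for Malat1. They were above in 9 of 9 for Neat1 and for Kcnq1ot1, and in 0 of 9 for Snhg11.

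Neat1 was also highest in CD-PC cells, at 1217 ± 508 CPM (SD, n = 9), then in podocytes at 778.5 ± 543 (n = 7), LOH cells at 661.5 ± 240.2, DCT cells at 491.7 ± 246.6 and PT cells at 449.1 ± 280.5, and lowest in cycling cells at 237.0 ± 194.6. Kcnq1ot1 had its highest levels in CD-PC cells (56.2 ± 24.6 CPM) and podocytes (51.4 ± 19.8), followed by CD-IC (21.2 ± 21.9) and LOH cells (21.2 ± 9.04), and its lowest in B cells (6.79 ± 5.36), with PT cells at 10.6 ± 5.08. Snhg11 had another order. It was highest in PT cells at 66.2 ± 24.2 CPM, then in podocytes at 34.8 ± 26.3, and the other 10 types lay between 17.9 and 30.7 CPM. Over the 12 types the mean log2 levels of Malat1 and Neat1 had r = 0.891, and those of Malat1 and Snhg11 r = 0.220, as a description of types that share libraries and PT RNA.

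The levels were also given relative to Slc34a1, as the ratio of an RNA to Slc34a1 in a type divided by the same ratio in PT cells of the same mouse. A value of 1 means the same proportion to Slc34a1 as in PT cells. In CD-PC cells the median ratio was 4.77 for Malat1, 8.33 for Neat1 and 14.2 for Kcnq1ot1, above 1 in 9 of 9 mice for each. Malat1 stood at 1.86 in DCT and 1.61 in LOH cells, Neat1 at 2.33 and 2.91 and Kcnq1ot1 at 2.72 and 3.64, again above 1 in 9 of 9 mice. Snhg11 was at 0.632 in DCT and 0.644 in LOH cells and above 1 in 0 of 9 mice, and its median was under 1 in all 11 types. The median ratio of Malat1 was 0.970 in macrophages (above 1 in 4 of 9 mice), 0.727 in B cells (3 of 9) and 0.701 in cycling cells (0 of 9). Slc34a1 was lower outside PT cells, so a value above 1 need not mean a higher level. In plain CPM, Malat1 was above PT cells of the same mouse in 3 of 9 mice in DCT and 2 of 9 in LOH cells (median ratios 0.915 and 0.917). Neat1 was above in 5 and 8 of 9 mice, and Kcnq1ot1 in 7 and 9.

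**Figure D2:**
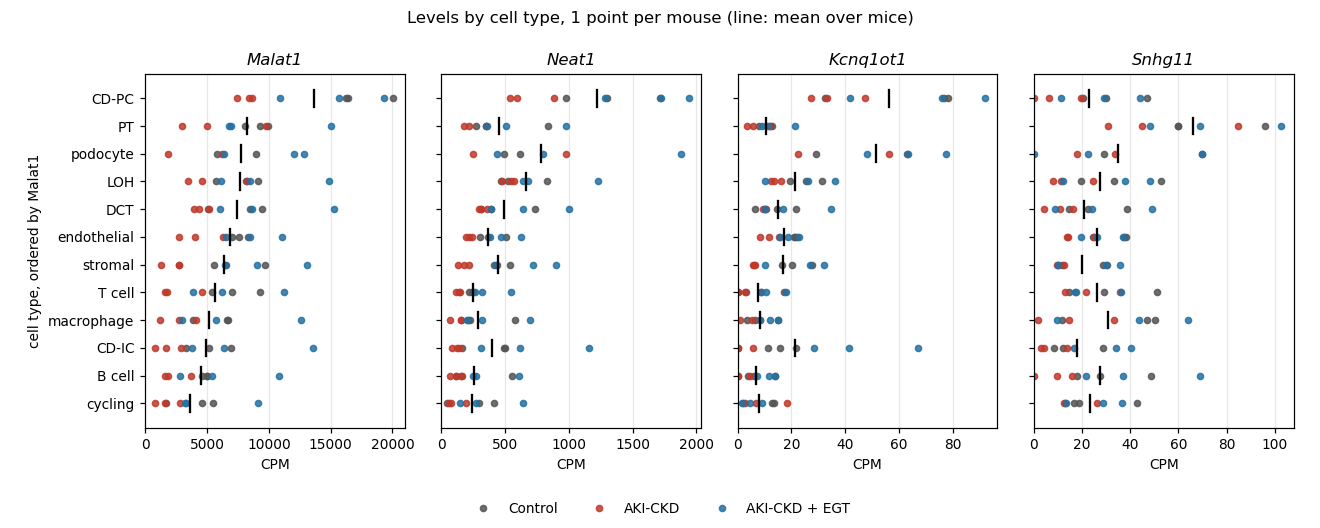
CPM (horizontal axes) of the 4 RNAs in the 12 cell types (vertical, ordered by Malat1), with 1 point per mouse, groups in colour and a line at the mean over mice. Malat1, Neat1 and Kcnq1ot1 have their highest mean in CD-PC cells, at 13666, 1217 and 56.2 CPM, and Snhg11 in PT cells, at 66.2 CPM.

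The other types were not among the fitted populations, so their values by group carry no test. CD-PC cells are described because Malat1, Neat1 and Kcnq1ot1 were highest there. In plain CPM Kcnq1ot1 (584 UMIs) overlapped between the groups of both comparisons. Snhg11 (259 UMIs) was lower in AKI-CKD than in Control mice without overlap, and overlapped in the second comparison. Malat1 stood there at 16386, 16255 and 20053 CPM in Control mice, 8357, 8676 and 7421 CPM in AKI-CKD mice and 10922, 15644 and 19281 CPM in AKI-CKD + EGT mice. Every AKI-CKD mouse was below every mouse of the other groups. Neat1 stood at 1716, 978.0 and 1298 CPM, at 535.2, 884.9 and 592.6 CPM and at 1282, 1943 and 1724 CPM, with the same separation. Of 9199 genes in CD-PC cells, 12.9% were lower without overlap in the first comparison and 10.2% higher in the second. CD-IC, endothelial and stromal cells also had both RNAs lower in AKI-CKD mice than in either other group without overlap. There 10.6% and 11.7% of 7821, 8.31% and 11.7% of 10086, and 11.6% and 13.5% of 8174 genes were lower in the first and higher in the second comparison. Over the 11 types with 3 mice in each group, the plain CPM of Neat1 stood higher without overlap with EGT than with cisplatin alone in 10, and that of Malat1 in 6. Among the types in which the RNA itself had at least 90 UMIs, Kcnq1ot1 did so in 3 of 7 and Snhg11 in 1 of 9, beside 6.16% to 22.2% of the genes with as many UMIs in a type. Lower levels in AKI-CKD than in Control mice without overlap were seen for Neat1 and Malat1 in 6 types each, Kcnq1ot1 in 4 of 7 and Snhg11 in 1 of 9, where 4.62% to 12.9% of genes did so. The types come from the same mice and share PT RNA, so they are not separate observations.

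PT cells were far from uniform. Of their 9 clusters, PT cluster 10 (12791 cells, median 3967 UMIs, 3.82% mitochondrial UMIs) was singled out because its pooled Malat1 was the highest. The 4 RNAs were kept out of the genes used for clustering, but genes that vary with them, such as Nhs, were not barred. PT cluster 10 had the highest level of each of the 4 RNAs in 9 of 9 mice. Its means were 33756 CPM for Malat1, 1493 for Neat1, 52.6 for Kcnq1ot1 and 283.9 for Snhg11, and it held 38.9%, 29.7%, 39.0% and 45.1% of all UMIs of these RNAs in 6.50% of the kept cells. Malat1 in it stood at 30627, 36808 and 44583 CPM in Control mice, 38231, 29815 and 17604 CPM in AKI-CKD mice and 32136, 31636 and 42363 CPM in AKI-CKD + EGT mice, so AKI-CKD mouse 3 was again the lowest. The other 8 PT clusters had Malat1 means of 1801 to 13840 CPM. PT cluster 3 held 29.1% of the Snhg11 UMIs at 113.8 CPM.

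Against the other PT cells, PT cluster 10 had mean log2 ratios of 2.96 for Malat1, 2.39 for Neat1, 3.24 for Kcnq1ot1 and 2.98 for Snhg11, which ranked 19, 103, 7 and 15 of 7147 genes. The highest ratios were those of Esrrg, an orphan nuclear receptor (3.53), and Nhs (3.39). Kap, an abundant PT transcript, averaged 50219 CPM against 101660 CPM. Of 26 speckle protein genes 25 were higher (median 0.70), as were 17 of 18 paraspeckle genes (0.52), 11 of 12 other noncoding RNAs (1.45) and 16 of 16 dissociation genes (0.65), but 3 of 90 ribosomal protein genes (-0.47) and 7 of 14 host genes (-0.04), beside 4721 of all 7147 genes (0.29). The cluster was chosen by its Malat1 level and set against the cells it was drawn from, so these are a description. It made up 6.85% ± 1.46 of the kept cells in Control mice, 6.44% ± 1.94 with cisplatin alone and 6.00% ± 0.47 with EGT (SD, n = 3), a difference within the spread. Without it the PT log2 fold changes were -0.79, -1.005, -0.86 and -0.41 for Malat1, Neat1, Kcnq1ot1 and Snhg11 in the first comparison and 0.86, 1.27, 1.14 and 0.51 in the second. By edgeR 0 of these passed, beside 0.0773% and 0% of 16815 genes. Neat1 in both comparisons and Kcnq1ot1 in the second were under 0.05 without adjustment in edgeR, as were 11.4% and 14.1% of genes.

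**Figure D3:**
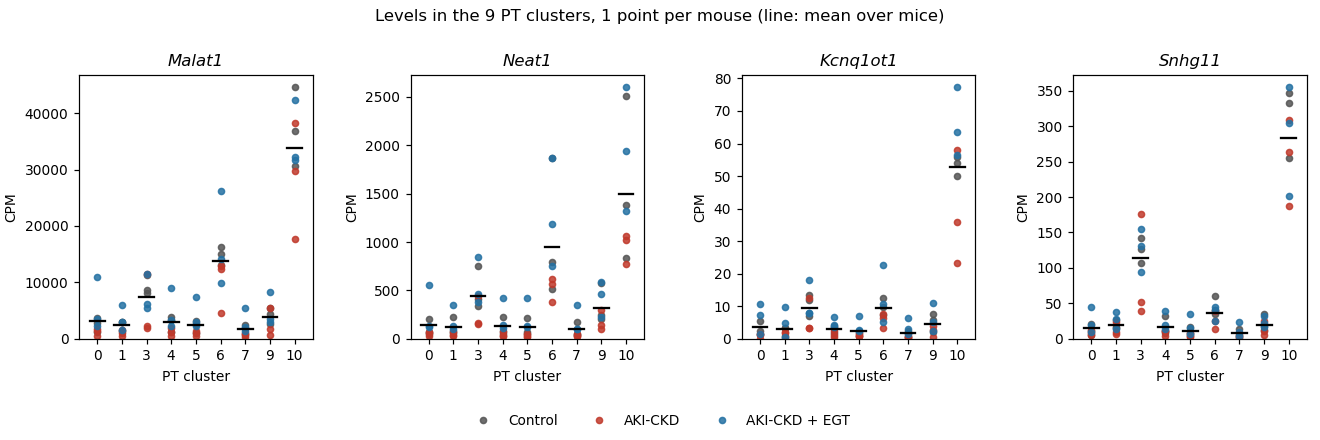
CPM (vertical axes, from 0) of the 4 RNAs in the 9 PT clusters (horizontal, by cluster number), with 1 point per mouse, groups in colour and a line at the mean over mice. PT cluster 10 is highest for each RNA, at a mean of 33756 CPM for Malat1 and 283.9 CPM for Snhg11, and PT cluster 6 follows for Malat1 at 13840 CPM.

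A small LOH cluster also had high means of the 4 RNAs. LOH cluster 22 (643 cells, 13 to 180 per mouse) averaged 18088 ± 7128 CPM of Malat1, 1844 ± 1109 of Neat1, 87.9 ± 38.4 of Kcnq1ot1 and 67.1 ± 63.2 of Snhg11 (SD over mice), against 6080, 485.6, 12.04 and 22.7 CPM in LOH cluster 8 (6988 cells). Neat1 and Snhg11 (208 UMIs) were not high in every mouse of cluster 22, with lowest values of 207.8 and 11.5 CPM. The share of cluster 22 in the kept cells was 0.288% ± 0.139 in Control mice, 0.121% ± 0.0742 with cisplatin alone and 0.612% ± 0.401 with EGT (SD, n = 3). Without it the Neat1 log2 fold change in LOH cells of AKI-CKD against Control mice was 0.22 in place of -0.23.

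Within each mouse, PT cells were ranked by their Malat1 share and split into quintiles. From the lowest to the highest quintile the median over mice went from 53.5 to 1100 CPM for Neat1, from 1.00 to 35.8 CPM for Kcnq1ot1 and from 6.78 to 205 CPM for Snhg11, higher in 9 of 9 mice for each. Many genes took a larger share there. Over 13822 genes, with Malat1 left out of the totals, the median ratio of the highest to the lowest quintile was 1.54, and 56.1% were higher in 9 of 9 mice. Dissociation genes were at 2.29 times, speckle protein genes at 2.16 times and paraspeckle protein genes at 1.55 times their level in the lowest quintile (each in 9 of 9 mice), ratios that 26.9%, 29.4% and 49.5% of genes reached. Lrp2, the endocytic receptor megalin, was at 1.77 times. Kap was at 0.562 times, lower in 9 of 9 mice. Ribosomal protein genes took 8.05% of UMIs in the lowest and 6.38% in the highest quintile. The mitochondrial share was 2.92% and 3.31%, higher in 7 of 9 mice, and the median depth was 3231 and 3680 UMIs. Neither ran steadily with the Malat1 share, at 3.69% and 2163 UMIs in the fourth quintile.

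The mitochondrial share was set beside the 4 RNAs over the 9 mice, with the RNAs given as CPM of the UMIs that are not mitochondrially encoded (non-mt CPM), so that neither share enters the other. The share was part of the choice of these genes, so the relation is not independent evidence. In DCT cells the mitochondrial share was 7.38%, 4.98% and 1.69% in Control mice, 3.10%, 2.71% and 2.39% with cisplatin alone and 3.25%, 5.84% and 8.42% with EGT. Kcnq1ot1 there stood at 23.6, 15.3 and 6.47 non-mt CPM in Control mice, 10.5, 10.98 and 9.60 with cisplatin alone and 10.7, 17.9 and 38.0 with EGT. Mice with a higher mitochondrial share had more Kcnq1ot1 in each group of DCT cells but AKI-CKD, whose 3 mice lay close together.

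For Kcnq1ot1 in DCT cells this gave r = 0.942 and rho = 0.950 over the 9 mice. Over the 16 relations (4 RNAs, 4 populations), which share mice, r ran from 0.677 to 0.947, and no test is given. In DCT cells r was 0.903 for Malat1, 0.947 for Neat1 and 0.941 for Snhg11, with rho of 0.883, 0.967 and 0.833. In cluster 13 alone r was 0.918, 0.940, 0.951 and 0.922 for Malat1, Neat1, Kcnq1ot1 and Snhg11, and in cluster 14 alone 0.818, 0.850, 0.638 and 0.917. In LOH cells r was 0.864, 0.887, 0.897 and 0.911 for Malat1, Neat1, Kcnq1ot1 and Snhg11. In all cells that passed the minimums r was 0.793, 0.914, 0.889 and 0.803. In PT cells r was 0.677, 0.832, 0.803 and 0.796, and rho for Malat1 was 0.517.

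Many other genes had a high r with the mitochondrial share, counted over genes with at least 90 UMIs that are not mitochondrially encoded. In PT cells the median r of 17076 genes was 0.442, and 27.7% of them had an r at least as high as Malat1, 7.92% as Neat1, 11.6% as Kcnq1ot1 and 12.4% as Snhg11. In all cells that passed the minimums the median of 19543 genes was 0.517, and 20.9%, 4.15%, 7.44% and 19.5% reached the r of the 4 RNAs in that order. The shares were smaller in DCT and LOH cells, where the r of Malat1 was higher. In DCT cells the median of 11550 genes was 0.157, and 2.02%, 0.442%, 0.580% and 0.632% reached those of the 4 RNAs. In LOH cells the median of 11024 genes was 0.049, and 2.27%, 1.47%, 1.22% and 0.952% did.

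The relation rested on Control mouse 1 and AKI-CKD + EGT mouse 3 to differing degrees. Without these 2 mice, the farthest from the median mitochondrial share, r in DCT cells was 0.906 for Malat1, 0.856 for Neat1, 0.984 for Kcnq1ot1 and 0.788 for Snhg11, and in LOH cells 0.793, 0.764, 0.684 and 0.795. In PT cells it fell to 0.436, 0.402, 0.740 and 0.441, and in all cells to 0.499, 0.543, 0.818 and 0.464, so that there all but Kcnq1ot1 depend largely on those 2 mice. With each mouse taken as its deviation from its group mean, r was 0.557 to 0.762 in PT, 0.853 to 0.934 in DCT, 0.790 to 0.939 in LOH and 0.713 to 0.876 in all cells.

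**Figure D4:**
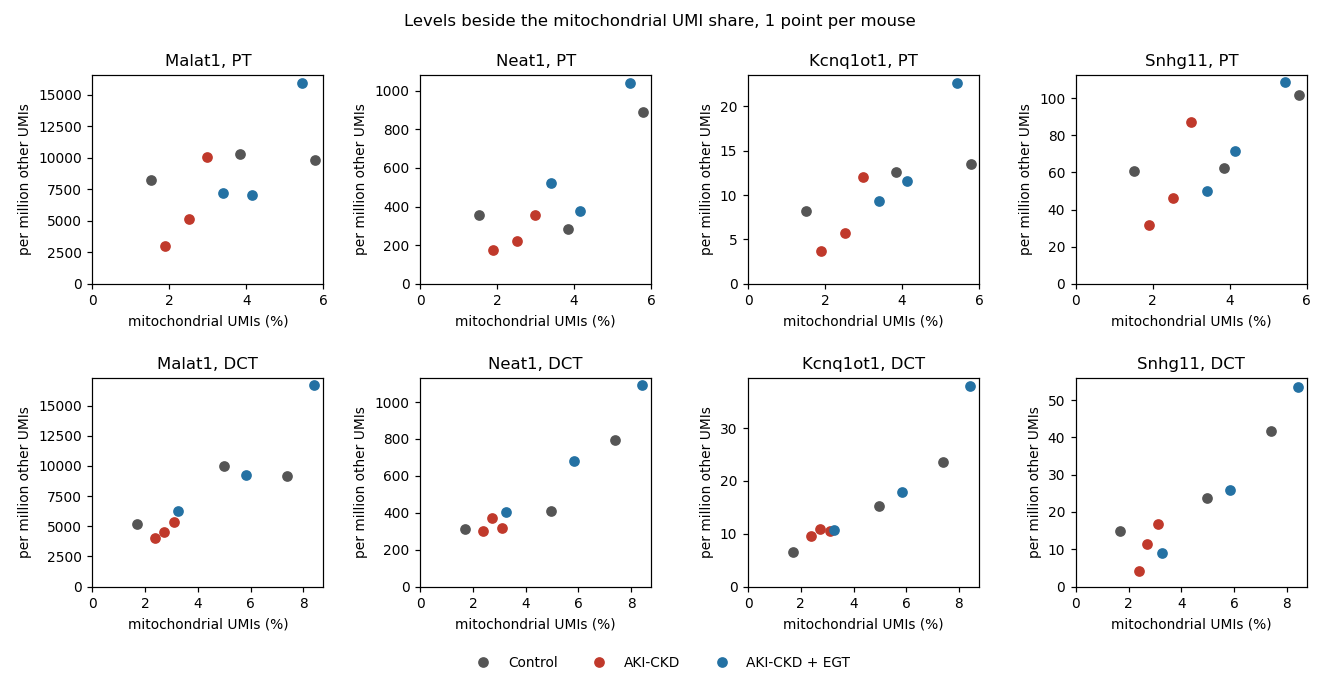
Non-mt CPM of the 4 RNAs (vertical axes, from 0) against the mitochondrial share of UMIs (horizontal axes, %) in PT cells (upper row) and DCT cells (lower row), with 1 point per mouse and groups in colour. In DCT cells the points rise with the share, with r = 0.942 for Kcnq1ot1, and in PT cells they scatter more, with r = 0.677 for Malat1.

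Cells of each mouse were also grouped by their own mitochondrial share, as a description. Malat1 had medians over mice of 6974, 8023, 8343, 10990 and 20063 non-mt CPM in cells with a share under 2.5%, 2.5 to 5%, 5 to 10%, 10 to 15% and over 15%. Kcnq1ot1 had 9.30, 12.7, 14.01, 16.6 and 31.0 non-mt CPM in the same bins. Neat1 had 340.0, 329.9, 302.2, 459.8 and 618.5 non-mt CPM, and Snhg11 had 52.7, 56.9, 53.8, 62.6 and 112.8, so the medians of these 2 differed little below 10%. Within mice Neat1 was lower at 5 to 10% than under 2.5%, as in Control mouse 1 (707.0 against 1147 non-mt CPM). The exceptions were AKI-CKD mouse 2 (252.9 against 226.0) and AKI-CKD + EGT mouse 2 (442.6 against 415.2). Snhg11 went either way within mice. From the lowest bin to that of 10 to 15% the median ratio was 1.65 for Malat1 (above 1 in 8 of 9 mice), 1.83 for Kcnq1ot1 (8 of 9), 1.19 for Snhg11 (6 of 9) and 1.11 for Neat1 (5 of 9). With all UMIs in the denominator the Neat1 ratio was 0.981 (2 of 9), and in cells with 2000 to 4000 UMIs it was 0.968 (4 of 9), so its direction was not stable, while in PT cells alone it was 1.08 (5 of 9). Snhg11 was at 1.06 (6 of 9), 1.03 (5 of 9) and 1.35 (7 of 9) under the same 3 settings. Malat1 and Kcnq1ot1 were at 1.62 and 1.61 in cells with 2000 to 4000 UMIs (7 of 9 each). Depth differed between the bins, with median UMIs per cell of 3091 to 7059 over mice under 2.5% and 1576 to 2171 at 10 to 15%. Control mouse 1 went the other way for each, with ratios of 0.788, 0.718, 0.441 and 0.506. Cells over 15% were left out of every other result but the relation in all cells.

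**Figure D5:**
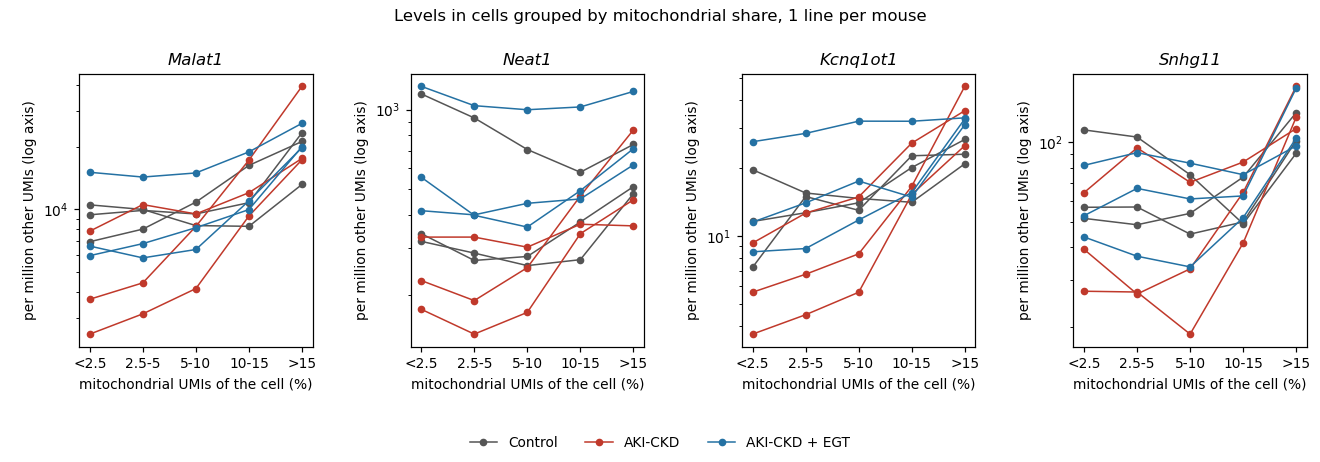
Non-mt CPM of the 4 RNAs (vertical axes, log scale) in cells grouped by mitochondrial share (horizontal axes, %), with 1 line per mouse and groups in colour. Malat1 and Kcnq1ot1 are highest in the cells over 15%, at medians of 20063 and 31.0 non-mt CPM, and 1 Control mouse has falling Neat1 and Snhg11 up to 15%.

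The genes most like each RNA were sought among 5893 genes over the 9 mice in PT cells, by Pearson r of log2 CPM and as a description. Only genes above a minimum average level were searched, which Kcnq1ot1 did not reach in PT cells. The genes found were Tbc1d5 (0.943), Nhs (0.938) and Cwc27 (0.937) for Malat1, and Wdr7 (0.967), Msi2 (0.952) and Ank3 (0.951) for Neat1. Kcnq1ot1 was most like Mir99ahg (0.972), Shroom3 (0.969) and Plcb1 (0.962), and Snhg11 most like Lpin2 (0.933), Nipsnap2 (0.928) and Fhit (0.926). Among the RNAs themselves Malat1 and Kcnq1ot1 had r = 0.948, Kcnq1ot1 and Snhg11 0.886 and Malat1 and Snhg11 0.865, while Neat1 had 0.677 to 0.754 with the other 3. Over the 12 cell types and 6614 genes, Malat1 was most like Atxn7 (0.905), Mir99ahg (0.895) and Fbxl17 (0.894), Neat1 most like Gm35612 (0.965), Col4a4 (0.931) and Kcnq1ot1 (0.923). Kcnq1ot1 was most like Stam2 (0.957), Fbxl20 (0.953) and Iqschfp (0.953), and Snhg11 most like Gm42397 (0.949), Slco1a6 (0.949) and Ehhadh (0.942).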

How the data were processed

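Single-cell libraries of 9 kidneys were analysed from the raw UMI count matrices that the authors deposited, 1 per mouse. Per the labels these were made with PISA v1.0 on GRCm39, and other settings are not given in the sources used here. Barcodes are running names, of which 62337 of 98290 occur in more than 1 library, so shared droplets could not be counted. Counts were normalised per cell, integrated with Harmony over mice and clustered with scanpy 1.11.5 (Leiden, leidenalg 0.10.2, 2000 variable genes, 30 components, 20 neighbours, resolution 1.1), without the 4 RNAs and the gene lists among the variable genes. A cluster was named where at least 3 markers of a type were raised 2-fold, and the step that chose the name T over NK cells was added after the clusters were seen. All 6 NK markers were also highest in the cells named T, so T and NK cells are not told apart there. No doublet caller was used, and leaving out the 6% of cells with the most UMIs is an alternative.

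UMI counts were summed per mouse and population and tested with edgeR 4.0.16 (quasi-likelihood, TMM, filterByExpr, all 9 mice in 1 fit, Benjamini-Hochberg over all genes), with DESeq2 1.42.0 as an alternative. The edgeR step was also run on simulated counts, drawn for each gene separately, so without the shared variation between genes seen here. Its outcome is not given, and no result rests on it. Permutation p-values planned for the relation to the mitochondrial share are not given, because that share was part of the choice of the 4 RNAs. A mouse entered a type with at least 20 cells. CPM uses plain totals unless TMM is named. The standard errors printed with edgeR values are the absolute log2 fold change divided by the square root of its F statistic. They restate that test and are not a separate estimate of the spread. The 4 RNAs and all lists (paraspeckle, nuclear speckle, other noncoding RNA, small nucleolar RNA host, Kcnq1 domain, rRNA-like, dissociation, haemoglobin, mitochondrially encoded, ribosomal protein) were chosen with earlier results of these data known. From each list but the ribosomal protein genes, which were taken by name pattern, the genes passing in all kept cells, otherwise the 2 most abundant, were named, except 1 that is not reported here. Fits of each DCT cluster alone were added after seeing the data. For likeness, the 3 genes with the highest r were named.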

Additional observations from a re-analysis of the deposited data

How the results depend on the processing

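By edgeR, 4 and 1 genes passed in all kept cells (AKI-CKD against Control, then AKI-CKD + EGT against AKI-CKD), 9 and 0 in PT and 0 in both for DCT and LOH cells. Without the filter on low counts 29 and 5, 112 and 242, 253 and 468, and 269 and 436 passed. DESeq2 called 112 and 217, 184 and 421, 14 and 52, and 44 and 47. With only the 6 mice compared there were 0 and 0 in all cells, 0 in PT (first comparison), 3 in DCT (first) and 7 in LOH cells (second). The 10% mitochondrial limit gave 0 in all cells (second). Without the 6% of cells with the most UMIs there were 2 in all cells (first) and 7 and 47 in LOH cells, without Harmony 1 in DCT (first) and 11 and 436 in LOH cells, and without the cluster with the most Malat1, an alternative chosen after seeing the data, 3 and 28 in LOH cells. The cells named LOH were a larger set without Harmony. Their clusters held 16240 cells (46.4% from 1 mouse) and 4688 cells, against 6988 and 643 with Harmony. The cells named DCT were 7389 without Harmony, against clusters of 7764 and 4920 with it. Leaving out 1 mouse gave 0 to 11 and 0 to 1 in all cells, 0 to 21 and 0 to 117 in PT, 0 to 177 in DCT (second), and 0 to 1 and 0 to 9 in LOH cells. The replicate numbers do not pair the mice (correlations of same-numbered mice from -0.474 to 0.470), and a fit with the replicate block gave 0 and 0 genes in all cells and 0 in PT cells (first), with no call among the 4 RNAs changed. Without the filter 12 values of the 4 RNAs passed, beside 1.01% and 1.86% of 25118 genes in DCT and 0.941% and 1.52% of 28601 genes in LOH cells: Malat1 -0.75 and Snhg11 -1.19 in DCT and Kcnq1ot1 -1.06 and Snhg11 -1.55 in LOH cells in the first comparison, and 1.07, 1.00, 0.99 and 1.28 in DCT and 1.05, 0.84, 1.07 and 1.51 in LOH cells for Malat1, Neat1, Kcnq1ot1 and Snhg11 in the second. Malat1 in DCT cells (second) ran from 0.61 to 1.33 with 1 mouse left out. Neat1 in LOH cells (first) turned to 0.044 without the cells with the most UMIs, 0.11 without Harmony and 0.22 without the high-Malat1 cluster, and ran from -0.41 to 0.075 with 1 mouse left out (0.075 without Control mouse 1). Snhg11 in the second comparison ran from -0.088 to 0.64 in all cells and from -0.042 (without AKI-CKD mouse 3) to 0.68 in PT cells. The r of Malat1 with the mitochondrial share in PT cells was 0.657 with all UMIs in the denominator and 0.533 to 0.766 with 1 mouse left out, and in all cells 0.585 (without AKI-CKD + EGT mouse 3) to 0.859. The causes were not tested. Precision is limited by 3 mice per group and, for Kcnq1ot1 and Snhg11 in DCT and LOH cells, by 526 to 935 UMIs each.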
